A study of Mus musculus with 47 samples.

Results

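The genes examined here are 10 germline genes that are normally silent in somatic tissue: Dazl, Ddx4, Mael, Sycp1, Sycp3, Slc25a31, Tex101, Tdrd1, Asz1 and Rpl10l. Their rows were found by gene symbol among the 20456 genes of the count table. 8 of the 10 had a row of counts. Tex101 and Rpl10l were not analysed here. RNA was sequenced from liver, lung and brain of mouse embryos of strain C57BL/6, as labelled, at E18.5 in 47 libraries of 17 embryos from 8 litters. The mutant embryos were homozygous for 1 of 2 knock-in alleles of Daxx, a chaperone of the histone variant H3.3. The Y130A allele (genotype Y130A/Y130A) replaces a residue needed for binding to Atrx, and the S226A allele (genotype S226A/S226A) replaces a residue needed for binding to H3.3. Both alleles were made with CRISPR/Cas9 in C57BL/6N zygotes, with later crosses to C57BL/6J, and are present in every cell of the embryo. Each mutant tissue was compared with the same tissue of wild-type (WT) embryos from the same litters. Every group held 4 libraries, apart from the WT lungs of the Y130A litters with 3. Y130A lung replicate 4, of litter 3069, thus had no WT littermate lung. The paper removed a WT lung of that litter as an outlier. The question was whether reads of the germline genes appeared or increased in either mutant.

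Germline genes are kept silent in somatic cells mainly by methylation of CpG-rich promoters and by Polycomb-type complexes that contain E2F6, MGA and MAX. E2F6 binds E2F-type sites and MGA with MAX binds E-boxes. The 10 genes fall into 4 groups by role. Ddx4 is an RNA helicase of germ cells, and Dazl is an RNA-binding protein that controls translation there. Tdrd1, Asz1 and Mael act in the piRNA pathway, which silences transposable elements in the male germ line. Sycp1 and Sycp3 are structural proteins of the synaptonemal complex, which joins homologous chromosomes in meiosis. Slc25a31 (the ADP/ATP carrier of testis), Rpl10l (a ribosomal protein retrogene) and Tex101 (a surface glycoprotein of germ cells) are made in testis.

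RefSeq promoter windows, from 250 bases before to 50 bases after each start site on GRCm38.p6, were found for all 10 genes. They held 13 to 38 CpG dinucleotides, against a median of 7 over all 32851 windows. The E2F-type motif GCGGGAA was searched on both strands, and the E-box CACGTG, which reads the same on both. The E2F-type motif occurred in the windows of 4 genes (Ddx4, Sycp3, Slc25a31 and Rpl10l) and in 4.6% of all windows. The E-box occurred in the windows of 6 genes (Ddx4, Mael, Sycp1, Sycp3, Slc25a31 and Tdrd1) and in 7.15% of all windows. Both motifs were present for Ddx4, Sycp3 and Slc25a31, and in 0.457% of all windows. These matches are descriptions of the letters and show no binding. The 250 bases before the start site are given for the 4 genes with the most reads, on which most values below rest, 5′ to 3′ on the strand of the gene, with motif matches in capitals.
Ddx4, chr13:112652311-112652560, minus strand: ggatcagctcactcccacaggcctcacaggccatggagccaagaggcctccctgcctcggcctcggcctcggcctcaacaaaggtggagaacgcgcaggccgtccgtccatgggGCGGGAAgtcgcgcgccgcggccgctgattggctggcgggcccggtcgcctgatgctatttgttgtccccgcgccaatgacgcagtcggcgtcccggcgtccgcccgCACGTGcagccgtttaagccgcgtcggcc
Tdrd1, chr19:56825959-56826208, plus strand: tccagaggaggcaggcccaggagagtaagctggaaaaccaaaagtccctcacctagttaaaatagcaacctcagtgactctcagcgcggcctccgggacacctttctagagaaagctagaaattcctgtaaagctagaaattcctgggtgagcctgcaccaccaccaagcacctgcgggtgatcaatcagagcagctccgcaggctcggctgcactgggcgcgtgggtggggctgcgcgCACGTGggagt
Asz1, chr6:18109062-18109311, minus strand: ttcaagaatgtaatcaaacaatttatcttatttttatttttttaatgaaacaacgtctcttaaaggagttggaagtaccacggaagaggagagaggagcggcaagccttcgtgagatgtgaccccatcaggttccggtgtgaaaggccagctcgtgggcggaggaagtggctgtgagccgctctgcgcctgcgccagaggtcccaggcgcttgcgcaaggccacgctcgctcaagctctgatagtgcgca
Dazl, chr17:50293621-50293870, minus strand: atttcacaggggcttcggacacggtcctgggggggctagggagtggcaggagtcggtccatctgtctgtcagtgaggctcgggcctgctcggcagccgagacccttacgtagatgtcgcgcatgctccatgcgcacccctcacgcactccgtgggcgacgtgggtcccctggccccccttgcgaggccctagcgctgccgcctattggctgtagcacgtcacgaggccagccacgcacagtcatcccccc
The Ddx4 window holds the E2F-type motif and an E-box, the Tdrd1 window an E-box close to the start site, and the windows of Asz1 and Dazl neither motif.

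The positions of the genes were taken from GENCODE M21 on GRCm38. Ddx4 is at chr13:112598333-112652475, Dazl at chr17:50279395-50293636, Tdrd1 at chr19:56826209-56870012, Asz1 at chr6:18050964-18109061, Mael at chr1:166201201-166238747, Sycp1 at chr3:102818499-102936100, Sycp3 at chr10:88459569-88473236 and Slc25a31 at chr3:40708855-40726096. Tex101 is at chr7:24668007-24676675 and Rpl10l at chr12:66283379-66284401. Sycp3, Slc25a31 and Tdrd1 are on the plus strand and the other 7 on the minus strand. Counts are given per gene, so that the exon in which a read lies was not analysed here.

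The libraries held 15722147 to 26190403 reads in the S226A litters (median 20341531) and 36351738 to 54885020 in the Y130A litters (median 44523912). The 8 genes together took 5 to 83 reads of a liver library, 76 to 472 of a lung library and 105 to 497 of a brain library. Relative to the total reads of the library (RPM) this was 0.265 to 1.79 RPM in liver, 4.37 to 10.2 in lung and 4.52 to 12.04 in brain. Marker genes of liver, lung and brain followed the labelled tissue. A pair of livers stood apart with transcripts of squamous epithelium, namely WT liver replicate 2 of the S226A litters and Y130A liver replicate 1. The summed level of 10 squamous epithelium genes was 1126 and 744 CPM (counts scaled to the TMM-adjusted library size) in these livers and 3.15 to 12.4 CPM in the other 14.

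The raw counts show that the 8 genes were not uniformly silent. Asz1 was read in every lung, and Tdrd1, Ddx4 and Dazl in every brain. Ddx4 had a read in 45 of the 47 libraries, Tdrd1 in 40, Slc25a31 in 34, Dazl in 28, Sycp1 in 26, Sycp3 in 24, Asz1 in 17 and Mael in 16. The highest count in any library was 289 for Tdrd1, 256 for Asz1 and 207 for Ddx4, and 47 or less for the other 5 genes. By level per length (CPM per kb of exon), each of the 8 genes was still below the median gene in each tissue, with 0.0% to 34.7% of genes below it in liver, 12.5% to 41.7% in lung and 7.66% to 37.4% in brain. Of 10 marker genes of somatic gonad cells, 7 to 10 had a read in each group, with a summed level of 9.80 to 86.3 CPM. The most abundant were Hsd3b6, a steroid dehydrogenase, at 19.98 ± 10.98 CPM per kb in liver (SD, n = 16) and Inha, the inhibin alpha subunit, at 8.01 ± 0.665 in brain (SD, n = 16). Fshr, of Sertoli and granulosa cells, was at 0 in all groups but S226A liver and the WT lungs of both sets, and Foxl2, of granulosa cells, in all liver groups and the WT lungs of the S226A litters. In S226A liver 1 of 8 tested markers, Hsd3b6, was called lower, where 2.1% of all genes were called. Without both livers with squamous epithelium transcripts it was not called (adjusted p = 0.0150 in edgeR). The part of such cells in the reads was not tested.

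**Figure D1:**
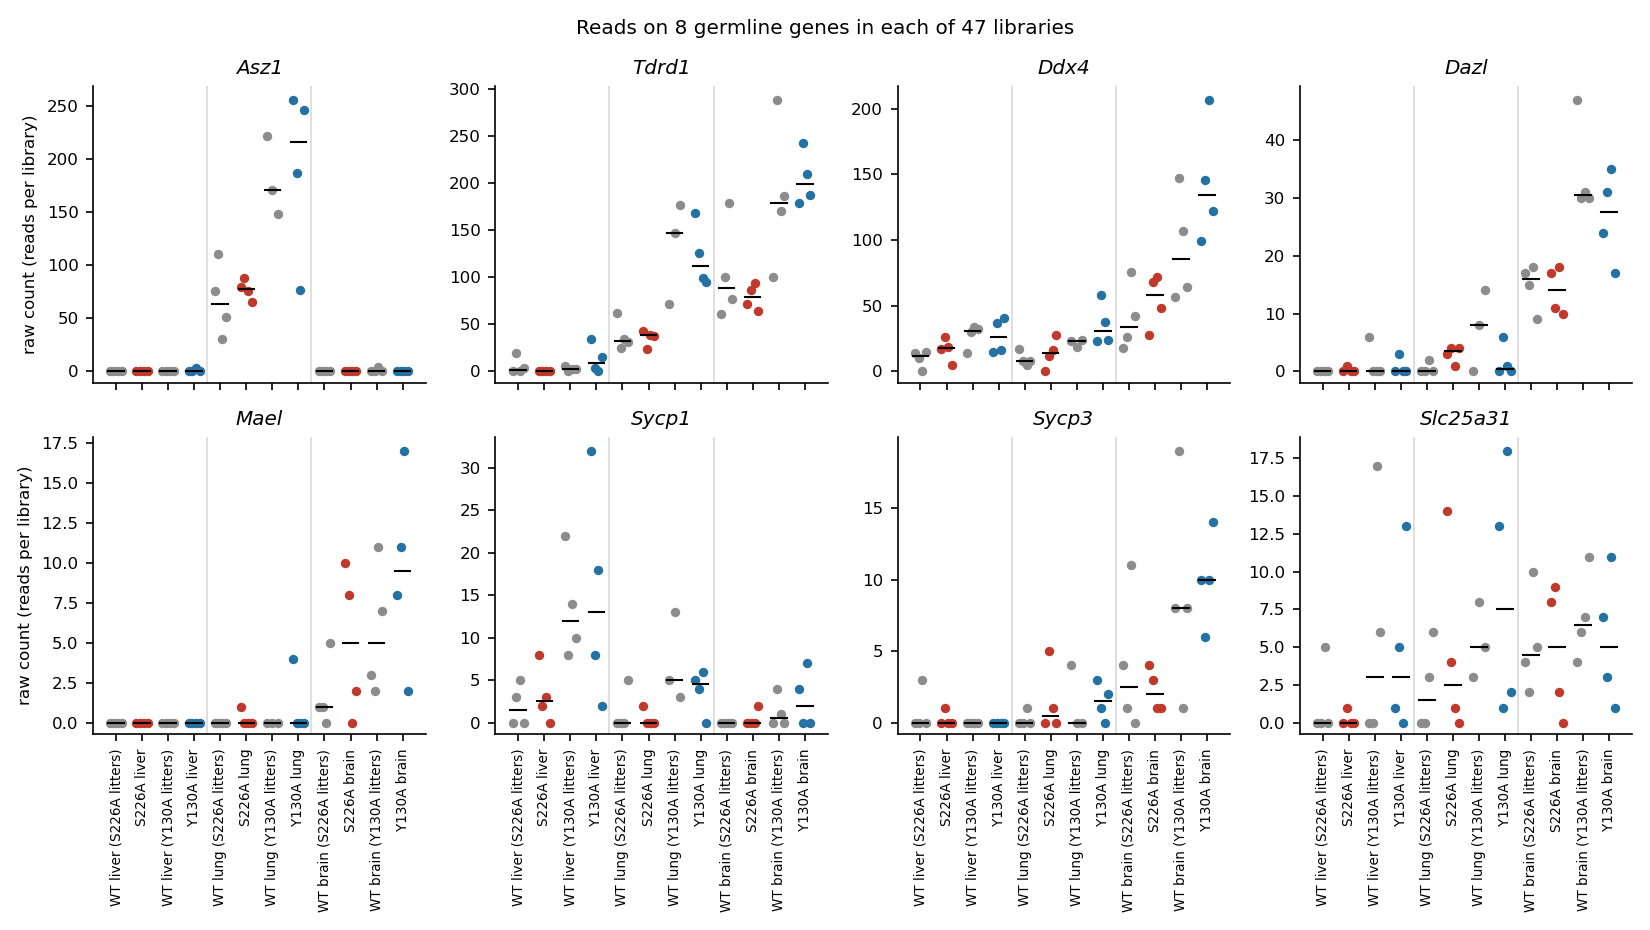
Raw count (y axis, reads per library) of 8 germline genes in 12 groups (x axis), with 1 point per library, the median as a bar, WT in grey, S226A in red and Y130A in blue. Asz1 had 31 to 256 reads in the 15 lungs and at most 4 elsewhere, and in no panel do all mutant libraries of a tissue lie above all of their WT littermates.

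No germline gene was derepressed in either mutant by the criteria used, which asked for an adjusted p below 0.01 in edgeR's quasi-likelihood test, for more than 1 log2 unit of change up or down, and for a standard error (SE) of that change below 1. Of the 6 genes that passed the filter on low counts (Asz1, Tdrd1, Ddx4, Dazl, Sycp1 and Slc25a31), 0 were called in S226A liver, where 2.1% of all 16892 genes tested were called. The count was also 0 in S226A lung (0.302%), S226A brain (0.124%), Y130A liver (0.077%), Y130A lung (0.0%) and Y130A brain (0.0%). DESeq2 called 0 of them in each comparison too. The limit on the SE alone can keep a gene near 0 reads from being called. The SE of Slc25a31 was 1.08 to 2.01 over the 6 comparisons, and that of Sycp1 was above 1 in all but Y130A liver (0.950). In edgeR without that limit, 0 were called as well. At an unadjusted p below 0.05 in edgeR, 1 gene passed in S226A liver (24.7% of all genes) and 1 in Y130A liver (9.22%), both times Tdrd1. It was 0 in S226A lung (16.2%), S226A brain (2.27%), Y130A lung (2.92%) and Y130A brain (2.22%). Mael and Sycp3 did not pass the filter. All 8 genes were also compared with two-sided exact permutation tests on log2(CPM + 1), in 48 tests. None of the 48 had a p below 0.05, and the lowest was 0.0571, before any adjustment. The smallest p that 4 against 4 libraries can give is 0.0286, and with 4 against 3, as in Y130A lung, it is 0.0571. In none of the 48 did all mutant libraries lie to one side of all WT libraries. Among all genes tested this was so for 11.9% in S226A liver, 3.81% in S226A lung, 2.48% in S226A brain, 2.35% in Y130A liver, 4.16% in Y130A lung and 4.75% in Y130A brain. A count of few reads sets a limit here: over a whole group, 3 reads correspond to 0.0151 to 0.0427 CPM. Intervals and limits of this kind cover counting error only.

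**Figure D2:**
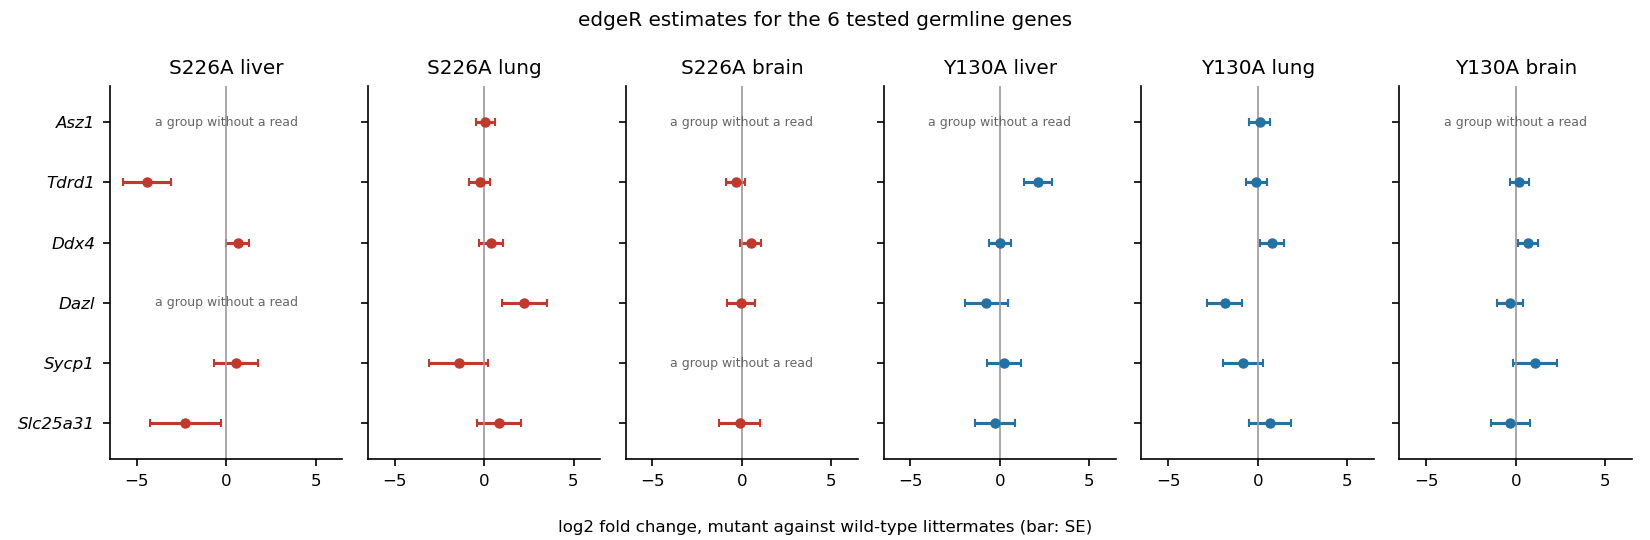
edgeR log2 fold change (x axis, mutant against WT littermates, bars SE) of the 6 tested germline genes (rows) in the 6 comparisons (panels). Genes without a read in one of the groups are marked as such and have no point. Tdrd1 in S226A liver lies farthest from 0 (-4.42), on the side of the WT.

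Asz1, which anchors the piRNA machinery at mitochondria, had the highest level per length of the 8 genes in any tissue, and it was read in every lung of every genotype. In the WT lungs of the S226A litters the counts were 31, 51, 76 and 111 reads, and in the S226A lungs 65, 76, 80 and 88. In the WT lungs of the Y130A litters they were 148, 171 and 222 reads, and in the Y130A lungs 77, 187, 246 and 256. The mutant and WT ranges overlapped in both sets. The log2 fold change was 0.08 (SE 0.552, adjusted p = 0.988 in edgeR) in S226A lung and 0.10 (SE 0.586, adjusted p = 1 in edgeR) in Y130A lung. Outside lung, Asz1 had reads in 1 of 16 livers (3 reads, in a Y130A embryo) and 1 of 16 brains (4 reads, in a WT embryo). Its level per length in lung was 1.27 ± 0.402 CPM per kb (SD, n = 15), where the median over all genes was 2.52.

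Ddx4, the germ cell helicase, had reads in nearly all libraries of all tissues, and most in brain. In the WT brains of the S226A litters the counts were 18, 26, 42 and 76 reads, and in the S226A brains 28, 48, 68 and 72. In the WT brains of the Y130A litters they were 57, 64, 107 and 147, and in the Y130A brains 99, 122, 146 and 207. The groups overlapped in both sets, although the mutant brain was higher than its littermate in 4 of 4 litters of either allele. The log2(CPM + 1) difference within litters was 0.33 ± 0.321 (SD, n = 4 litters) for S226A and 0.48 ± 0.276 (SD, n = 4 litters) for Y130A. The exact p was 0.125 each time, which is the smallest that 4 litters can give. In the fit across all genes, the log2 fold change was 0.50 (SE 0.585, adjusted p = 1 in edgeR) in S226A brain and 0.69 (SE 0.569, adjusted p = 1 in edgeR) in Y130A brain. Pooled over a group, Ddx4 (in RPM) was higher in the mutants in all 6 comparisons (2.46 against 1.83 in S226A brain, 3.03 against 1.89 in Y130A brain, 0.80 against 0.497 in S226A liver, 0.712 against 0.541 in S226A lung, 0.633 against 0.621 in Y130A liver and 0.891 against 0.535 in Y130A lung). In liver the counts were 0, 10, 14 and 15 reads in WT and 5, 17, 19 and 26 in S226A, and 14, 30, 32 and 34 in WT and 15, 16, 37 and 41 in Y130A. In lung they were 5, 8, 8 and 17 in WT and 0, 12, 16 and 28 in S226A, and 19, 23 and 24 in WT and 23, 24, 38 and 58 in Y130A. Groups overlapped in each of these too, and the tissues come from the same embryos and are not independent. Without S226A lung replicate 4 the log2 fold change of Ddx4 in S226A lung was -0.11 in place of 0.41. In Y130A liver it was 0.02 and turned negative without Y130A replicate 2 (-0.18), without Y130A replicate 4 (-0.24) or without WT replicate 1 (-0.24), and with litter as replicate block (-0.03).

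Dazl was read in all 16 brains, 9 of 15 lungs and 3 of 16 livers. The counts were 9, 15, 17 and 18 reads in the WT brains of the S226A litters and 10, 11, 17 and 18 in the S226A brains, so that these groups nearly coincided. In the Y130A litters they were 30, 30, 31 and 47 in WT and 17, 24, 31 and 35 in mutant brains. The lowest permutation p of the 48 belonged to Dazl in S226A lung, with 0, 0, 0 and 2 reads in WT and 1, 3, 4 and 4 in S226A lungs. The difference there was 0.14 in log2(CPM + 1) (two-sided exact permutation p = 0.0571, n = 4 against 4). In edgeR the log2 fold change was 2.25 (SE 1.25, adjusted p = 0.383), and 3 of 4 litters had the higher value in the mutant. The fold rested on the 2 reads of WT lung replicate 3, without which it was 5.13 (SE 1.98, adjusted p = 0.287 in edgeR). In Y130A lung the counts went the other way, with 0, 8 and 14 reads in WT and 0, 0, 1 and 6 in mutants (log2 fold change -1.85, SE 0.990, adjusted p = 1 in edgeR). It was -3.81 without Y130A lung replicate 2 and -1.02 without WT lung replicate 3 of the Y130A litters. The difference between these effects was 4.10 (SE 1.59, adjusted p = 0.366 in edgeR), and 6.98 without WT lung replicate 3 of the S226A litters. In liver, Dazl had 1 read over the 4 S226A livers and 0 over their WT littermates, and 3 reads over the 4 Y130A livers and 6 over theirs.

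Tdrd1, a Tudor domain protein that binds piRNA pathway proteins, was read in every lung and brain. In brain, the counts were 61, 77, 100 and 179 in WT and 64, 72, 87 and 94 in S226A, and 100, 171, 187 and 289 in WT and 179, 188, 210 and 243 in Y130A. In lung they were 25, 31, 34 and 62 in WT and 24, 38, 39 and 43 in S226A, and 72, 147 and 177 in WT and 95, 99, 126 and 168 in Y130A. All 4 pairs of groups overlapped, and the log2 fold changes lay between -0.35 and 0.21. In S226A brain the mutant was lower than its littermate in 4 of 4 litters, by -0.22 ± 0.245 in log2(CPM + 1) (SD, exact p = 0.125, the smallest possible).

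In liver, the few reads of Tdrd1 moved in opposite directions in the mutants, and in neither was it called. WT livers of the S226A litters had 0, 0, 4 and 20 reads, and S226A livers 0, 0, 0 and 1. WT livers of the Y130A litters had 0, 3, 3 and 6 reads, and Y130A livers 0, 4, 15 and 35. The log2 fold change was -4.42 in S226A liver (SE 1.33, adjusted p = 0.0231 in edgeR) and 2.16 in Y130A liver (SE 0.782, adjusted p = 0.279 in edgeR), and the exact permutation tests gave no p below 0.05. The S226A value was -6.68 (SE 2.11) without S226A liver replicate 2, which leaves the mutant livers at 0 reads. In S226A liver DESeq2 and the fit with litter as replicate block gave an adjusted p of 0.00270 and 0.00339, with an SE of 1.18 and 1.01 above the limit, while the lower value of the mutant is the reverse of derepression. The 20 and the 35 reads came from the 2 livers with squamous epithelium transcripts. Without these livers the log2 fold change was -2.28 (SE 1.56, adjusted p = 0.398 in edgeR) in S226A and 1.17 (SE 0.733, adjusted p = 0.745 in edgeR) in Y130A. Y130A liver replicate 4, with 15 reads, had 3.81 CPM of squamous epithelium genes, in the range of the other livers.

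For the difference between the effects of the 2 alleles, the criteria were an adjusted p below 0.01 and more than 1 log2 unit, with no limit on the SE. It was called for Tdrd1 in liver (log2 difference -6.58, SE 1.53, adjusted p = 0.00540 in edgeR), 1 of the 6 germline genes, where 1.47% of all genes were called. Its SE was above the limit of 1 set in the other comparisons. It was not called without both livers with squamous epithelium transcripts (-3.45, SE 1.73, adjusted p = 0.290 in edgeR), nor without the 1 in the WT (-4.44, adjusted p = 0.170 in edgeR) or the 1 in the Y130A group (-5.58, adjusted p = 0.0292 in edgeR). It was also lost with the Y130A set thinned (-5.75, adjusted p = 0.0156 in edgeR) and without S226A liver replicate 1, 3 or 4 or WT liver replicate 2 of the Y130A litters (adjusted p = 0.0105 to 0.0144 in edgeR), each of which had 0 reads of Tdrd1. With only the libraries compared, Tdrd1 did not pass the filter on low counts. Without S226A liver replicate 2 the difference was -8.84 (SE 2.15, adjusted p = 0.00881 in edgeR). In lung (0.077% of all genes) and brain (0.0474%) the difference was called for 0 of the 6 genes in edgeR and in DESeq2. At an unadjusted p below 0.05 in edgeR, 1 passed in liver (18.4%), 1 in lung (Dazl, 9.8%) and 0 in brain (2.29%).

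**Figure D3:**
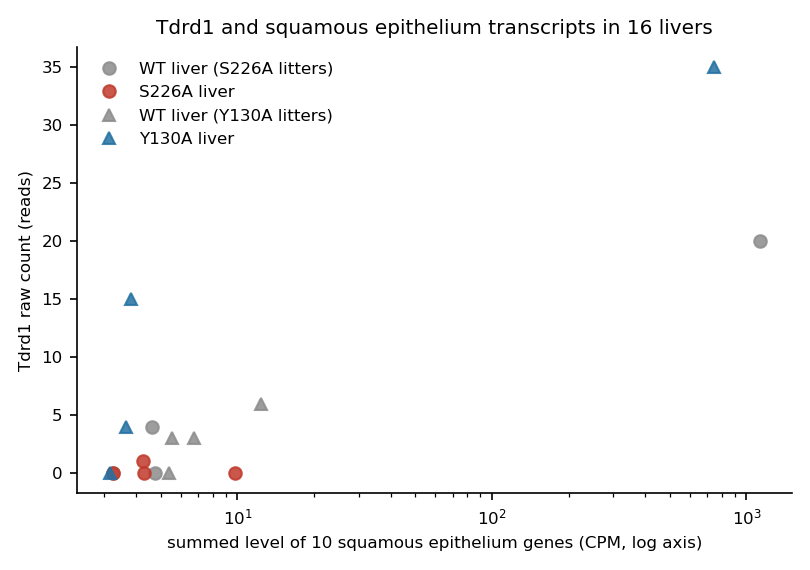
Raw count of Tdrd1 (y axis, reads) against the summed level of 10 squamous epithelium genes (x axis, CPM, log axis) in 16 livers, with 1 point per library, circles for the S226A litters and triangles for the Y130A litters. The livers at 1126 and 744 CPM had 20 and 35 reads, and the other 14 had 0 to 15.

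Mael, Sycp1, Sycp3 and Slc25a31 had at most 32 reads in a library. Mael, a protein of the piRNA pathway, had no read in any of the 16 livers. It had 0, 1, 1 and 5 reads in WT and 0, 2, 8 and 10 in S226A brains, and 2, 3, 7 and 11 in WT and 2, 8, 11 and 17 in Y130A brains. The groups overlapped in both sets. In lung Mael had 1 read in 1 S226A library and 4 in 1 Y130A library, against 0 in all 7 WT lungs. Sycp1, which links the chromosome axes of a pair, had 0, 0, 3 and 5 reads in WT and 0, 2, 3 and 8 in S226A livers, and 8, 10, 14 and 22 in WT and 2, 8, 18 and 32 in Y130A livers. Mutant and WT ranges overlapped in both sets. In lung Sycp1 had 0, 0, 0 and 5 reads in WT and 0, 0, 0 and 2 in S226A, and 3, 5 and 13 in WT and 0, 4, 5 and 6 in Y130A.

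Sycp3, a protein of the chromosome axis, had 0, 1, 4 and 11 reads in WT and 1, 1, 3 and 4 in S226A brains, and 1, 8, 8 and 19 in WT and 6, 10, 10 and 14 in Y130A brains. In liver and lung it had at most 5 reads, and none in the 8 livers of the Y130A litters. Slc25a31 exchanges ADP and ATP across the inner mitochondrial membrane of male germ cells. In lung it had 0, 0, 3 and 6 reads in WT and 0, 1, 4 and 14 in S226A, and 3, 5 and 8 in WT and 1, 2, 13 and 18 in Y130A. In brain it had 2, 4, 5 and 10 in WT and 0, 2, 8 and 9 in S226A, and 4, 6, 7 and 11 in WT and 1, 3, 7 and 11 in Y130A. The groups of both genes overlapped throughout, and the mean of Slc25a31 was 0.0529 CPM per kb in liver, 0.0728 in lung and 0.0714 in brain, with SDs of 0.0503 to 0.0875.

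Between tissues, some of the 6 tested genes were called, at shares near or below those of all genes. In the WT libraries, 2 of the 6 tested genes were called between liver and brain (56.1% of all genes), 2 between liver and lung (42.6%) and 3 between lung and brain (48.8%). Asz1 was at least 356-fold higher in lung than in liver, as 810 reads in 7 WT lungs stood against none in 8 WT livers, counted as 3. Against brain, where 4 reads were counted, its log2 difference was 8.56 (SE 0.690, adjusted p = 5.02e-11 in edgeR). Those 4 reads lay in replicate 3 of the Y130A litters, without which it was 9.79, and within the S226A litters it was not called (9.71, SE 1.13). Dazl was higher in brain than in liver (liver minus brain -5.48, SE 0.933, adjusted p = 1.40e-06 in edgeR) and than in lung (lung minus brain -3.20, SE 0.726, adjusted p = 0.000125 in edgeR). The lung difference was -4.66 to -2.92 with single libraries left out, and was called neither within the S226A litters (-4.35, SE 1.12) nor within the Y130A litters (-2.05, adjusted p = 0.0357 in edgeR). All 6 reads of Dazl in the 8 WT livers lay in replicate 1 of the Y130A litters. The liver call was lost, by an SE of 1.06, without that library (-7.29), which leaves liver at 0 reads, and by an SE of 1.01 to 1.02 without any 1 of the 4 WT livers of the S226A litters. Ddx4 was higher in brain than in lung (lung minus brain -1.80, SE 0.463, adjusted p = 0.000529 in edgeR), and its difference from liver (liver minus brain -1.11, adjusted p = 0.0169 in edgeR) was not called. The lung difference of Ddx4 was called neither within the S226A litters (-1.71, adjusted p = 0.0148 in edgeR) nor within the Y130A litters (-1.89, adjusted p = 0.0106 in edgeR). Tdrd1 was lower in liver than in brain (-4.24, SE 0.496, adjusted p = 2.67e-10 in edgeR) and than in lung (-3.53, SE 0.505, adjusted p = 4.20e-08 in edgeR). Without the WT liver with squamous epithelium transcripts, which held 20 of its reads in WT livers, these were -5.31 and -4.60. Its levels in lung and brain did not differ beyond their spread (-0.71, SE 0.406, adjusted p = 0.102 in edgeR). The log2 difference of Sycp1 in liver from brain was 4.58 (adjusted p = 0.000376 in edgeR), which missed the call by an SE of 1.14 and passed it with embryo as replicate block (SE 0.873). Its difference in liver from lung was 1.27 (SE 0.875, adjusted p = 0.182 in edgeR), and 3.34 without WT lung replicate 4 of the S226A litters. With that block, Asz1 was no longer called between liver and lung, by an SE of 1.09 (log2 difference -9.73, adjusted p = 1.32e-05 in edgeR).

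Ordered by level per length over all genotypes, lung had Asz1 at 1.27 CPM per kb, then Tdrd1 at 0.392 ± 0.137 and Ddx4 at 0.195 ± 0.115 (SD, n = 15). Brain had Ddx4 at 0.670 ± 0.283 and Tdrd1 at 0.661 ± 0.200, which did not differ beyond their spread, then Dazl at 0.148 ± 0.0381 and Sycp3 at 0.117 ± 0.0883 (SD, n = 16). Liver had Ddx4 at 0.278 ± 0.132 and then Sycp1 at 0.0867 ± 0.0759 (SD, n = 16), with the other genes at 0.0529 or less. In bulk tissue, fewer cells with a transcript and less transcript per cell cannot be told apart.

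**Figure D4:**
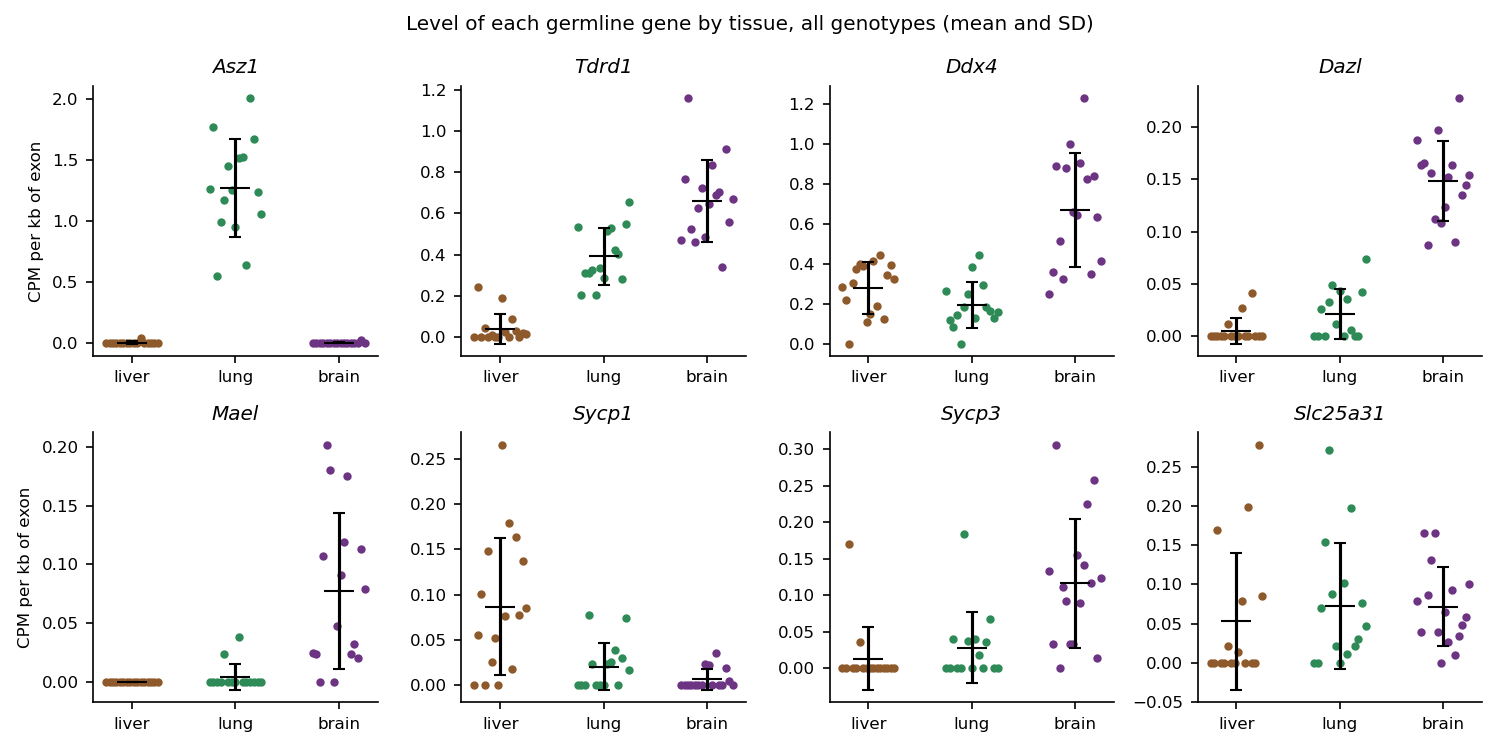
Level per length (y axis, CPM per kb of exon) of 8 germline genes in liver, lung and brain (x axis), with 1 point per library of any genotype and the mean and SD in black. Asz1 has a mean of 1.27 CPM per kb in lung against 0.00235 in liver and 0.00158 in brain, while the means of Dazl, Mael and Sycp3 are highest in brain.

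WT littermates of the S226A set were then set against those of the Y130A set. Of the 6 tested genes, 0 were called between the WT livers of the sets (0.414% of all genes called), between the WT lungs (1.62%) or between the WT brains (0.101%) in edgeR, and DESeq2 called 0 too. At an unadjusted p below 0.05 in edgeR, 0 passed in lung (31.6%) and brain (18.4%) and 1 in liver (28%), namely Tdrd1 (log2 difference of the S226A set from the Y130A set 2.04, adjusted p = 0.106), which was -0.11 without both livers with squamous epithelium transcripts.

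Among all genes tested, the pattern over the 47 libraries was most like that of Asz1 for Tmem213 (Pearson r = 0.984), Slc6a14 (0.984) and Sntn (0.982), on log2(CPM + 1). For Dazl these were Ywhae, Minar2 and Tmem196 (0.938 to 0.939), for Tdrd1 Nt5c3b, Epha4 and Ckmt1 (0.937 to 0.942), for Ddx4 Nhlh1, Henmt1 and Fkbp3 (0.772 to 0.775), for Sycp1 Asic5, Haus3 and Gm5134 (0.733 to 0.773) and for Slc25a31 Mrln, Hyal3 and Pgbd1 (0.420 to 0.446). These values are descriptions, and the points share tissues and embryos. Within lung alone, r with Asz1 was 0.529 for Tmem213, 0.588 for Slc6a14 and 0.477 for Sntn. Within liver, lung and brain, r was 0.452, 0.337 and 0.267 for Dazl with Ywhae. It was 0.841, 0.294 and -0.0202 for Tdrd1 with Nt5c3b. For Sycp1 with Asic5 it was 0.704, 0.4325 and 0.270, and for Slc25a31 with Mrln 0.645, 0.309 and 0.0525. For Ddx4 with Nhlh1 it was -0.143 in lung and 0.641 in brain.

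Reads of neighbours can be counted on a gene where transcripts overlap or run on, and the strand setting of the counting is not given in the sources used here. Sycp3 shares 660 exonic bases with Chpt1 on the opposite strand. Matched on either strand, 43.0% of the 50-base stretches of Sycp3 transcripts also occur in transcripts of Chpt1. This share is not separate from that overlap, and the counts of Sycp3 are uncertain. Chpt1 was highest in lung (7.39 ± 1.07 CPM per kb, SD, n = 15) and Sycp3 in brain. Wnt2 begins 20.4 kb downstream of Asz1 on the same strand. It was at 26.2 ± 2.16 CPM per kb in lung (SD, n = 15), 2.04 ± 0.814 in liver and 0.182 ± 0.0810 in brain (SD, n = 16). Nr1h5 ends 3.6 kb upstream of Sycp1 on the same strand. It was at 3.57 ± 0.842 CPM per kb in liver (SD, n = 16) and at 0.0152 in lung and 0.0345 in brain. Vwa2 begins 4.2 kb downstream of Tdrd1 on the same strand. It was at 0.955 ± 0.224 CPM per kb in lung (SD, n = 15), 0.225 ± 0.0593 in brain and 0.0106 ± 0.0218 in liver (SD, n = 16). In liver Vwa2 had 0, 3, 1 and 0 reads in WT and none in S226A embryos, and 10, 0, 0 and 0 in Y130A embryos and 0, 0, 0 and 4 in their WT littermates. The 3 and the 10 reads lay in the 2 livers with squamous epithelium transcripts, and Vwa2 was called in no mutant liver comparison nor between the alleles (adjusted p = 0.164 to 0.827 in edgeR). Transcripts that run on past the end of Wnt2 or Vwa2 lead away from Asz1 and Tdrd1. Those of Nr1h5, Intu and Gnptab lead towards Sycp1, Slc25a31 and Sycp3. The part of any of these neighbours in the reads of the germline genes was not tested. For Sycp1, 5.47% of the 50-base stretches, on either strand, occur in transcripts of other genes, for Tdrd1 0.0925%, and for Asz1, Dazl, Ddx4, Mael and Slc25a31 none.

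Other germline genes were taken from lists of the piRNA pathway and of meiosis. In edgeR, 0 of 21 tested genes of the piRNA pathway and germ cell RNA and 0 of 20 tested meiosis genes were called in any of the 6 mutant comparisons. At an adjusted p below 0.05 alone, 1 and 2 of them passed in S226A liver (11.7% of all genes), and 0 in S226A lung (1.88%), S226A brain (0.243%), Y130A liver (0.272%), Y130A lung (0.0178%) and Y130A brain (0.00592%). These 3 genes were named after their values were seen. Msh4, of the MutS family, had 3, 5, 6 and 16 reads in WT and 18, 21, 23 and 26 in S226A livers (log2 fold change 1.46, SE 0.478, adjusted p = 0.0386 in edgeR), and the groups did not overlap, as for 11.9% of all genes. Tdrd7, a Tudor domain protein that is also made in lens, had 951 to 1045 reads in WT and 1115 to 1962 in S226A livers (log2 fold change 0.31, SE 0.0985, adjusted p = 0.0342 in edgeR), and Syce1 had 0, 0, 11 and 15 reads in WT and none in S226A livers. Without both livers with squamous epithelium transcripts, 1 and 2 genes again passed, of which only Syce1 had passed with all livers. The share of all genes that passed in this fit is not given here. The adjusted p of Msh4 was then 0.126 and that of Tdrd7 0.0862 in edgeR, while Tdrd5 (0.00180), Sycp2 (0.0432) and Syce1 (0.0244) passed. The WT liver left out held the lowest WT count of Msh4 (3 reads) and of Tdrd7 (951 reads). Tdrd5, a Tudor domain protein of male germ cells, had 1, 5, 8 and 10 reads in S226A livers and 0, 0 and 0 in the 3 WT livers left, with 5 in the WT liver left out. Sycp2, a partner of Sycp3 on the chromosome axis, had 15, 16, 18 and 21 reads in S226A livers and 5, 5 and 8 in the 3 WT livers left, with 16 in the one left out. Neither passed with all livers (adjusted p = 0.0942 and 0.183 in edgeR), and both were named after their values were seen. Of 12 testis isoforms of housekeeping genes, 0 passed the filter on low counts, and the most abundant (Actl7b, Rpl39l and Ldhc) had at most 19 reads in a library. Of 5 somatic paralogs of the genes (Rpl10, Slc25a4, Slc25a5, Ddx3x and Ddx3y), 0 were called in any mutant comparison.

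Not all germline genes were low. Tdrd7 reached 18.6 ± 2.07 CPM per kb in liver (SD, n = 16), Ddx25 reached 9.11 ± 0.483 in brain (SD, n = 16) and Tdrkh 6.11 ± 0.493 in brain. Among the meiosis genes, Syce2 and Rec114 were highest in liver (6.48 ± 1.10 and 6.04 ± 1.68 CPM per kb, SD, n = 16) and Rec8 in lung (5.04 ± 0.864, SD, n = 15). Over all tested genes of a list, the median log2 fold change of the piRNA genes was 0.0 in S226A liver and 0.0 in Y130A liver, and that of the meiosis genes 0.16 and 0.20, where the median of all genes was -0.01 and 0. Over the genes with reads in both groups alone, it was -0.16 (16 genes) and -0.16 (15 genes) for the piRNA genes and 0.32 (17 genes) and 0.16 (18 genes) for the meiosis genes.

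Genes that keep germline genes silent were present in all tissues and 0 of 22 were called in any mutant comparison in edgeR. The most abundant were Trim28, the KAP1 corepressor, at 73.6 ± 4.10 CPM per kb in brain (SD, n = 16), Dnmt1, the maintenance DNA methyltransferase, at 49.2 ± 3.68 in liver (SD, n = 16) and Hdac2, a histone deacetylase, at 63.1 ± 7.24 in brain (SD, n = 16). At an adjusted p below 0.05 alone, Rybp was higher in S226A liver (log2 fold change 0.29, SE 0.0909, adjusted p = 0.0279 in edgeR) and Dnmt1 in S226A lung (0.28, SE 0.0780, adjusted p = 0.0449 in edgeR), 1 of the 22 in each, where 11.7% and 1.88% of all genes passed. Both were named after their values were seen. Without both livers with squamous epithelium transcripts the adjusted p of Rybp was 0.0513 in edgeR. The WT liver left out had 411 reads of Rybp, within the 290 to 496 of the other WT livers. The medians of the list lay between -0.03 and 0.11. In S226A liver, 10 of 10 neutrophil genes were called higher and 9 of 10 macrophage genes lower in edgeR (2.1% of all genes called), with a summed neutrophil level of 8991 to 9676 CPM against 3105 to 3699 in WT. Without both livers with squamous epithelium transcripts these were 10 and 8, and the share of all genes called in that fit is not given here. In S226A lung 4 neutrophil genes were called higher and 2 macrophage genes lower (0.302% of all genes), and in S226A brain 2 macrophage genes lower and 1 higher (0.124%). The part of these cells in the values of the germline genes was not tested.

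**Figure D5:**
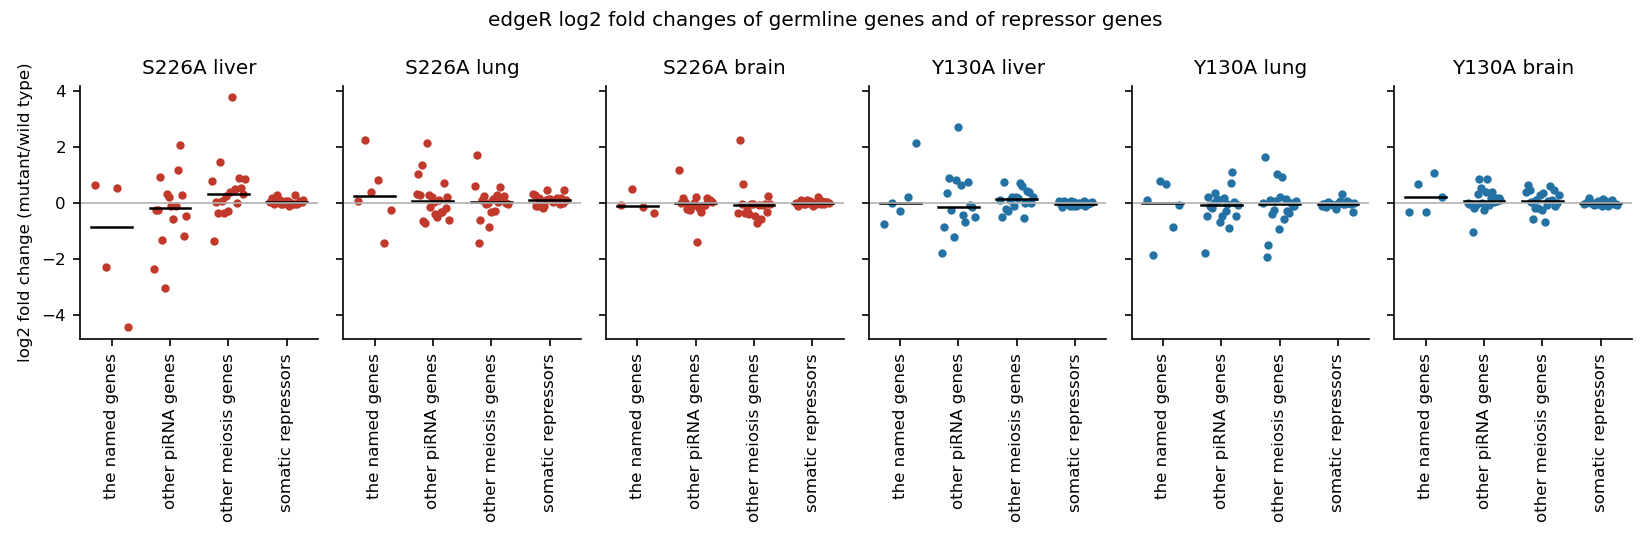
edgeR log2 fold change (y axis, mutant against WT) of tested genes with reads in both groups (points), with the median of each list as a bar, in the 6 comparisons (panels). The repressor genes lie within -0.33 to 0.48, and the median of the piRNA genes in S226A liver is -0.16.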

How the data were processed

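Total RNA of liver, lung and brain was sequenced in 47 libraries. The authors deposited raw counts of reads per gene, without normalization, after trimming with Trim Galore 0.6.5 and alignment to GRCm38 with STAR 2.6.0b, per the submitters' processing notes; the strand setting of the counting is not given in the sources used here. Groups were taken from genotype and tissue, and litters from the titles. The 10 genes and the gene lists were chosen with earlier results of these data known. Each named gene is a member, 1 of the 3 most abundant genes per length of a list, a called gene, or 1 of the 3 genes most like a member. Outside this rule stand neighbours and overlapping genes of members, somatic paralogs, the gonad markers Fshr and Foxl2, and genes stated to be named after their values were seen.

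Counts were fitted with the quasi-likelihood test of edgeR 4.0.16 (R 4.3.3), with TMM scaling, genes of low count removed by filterByExpr (at least 10 reads in enough libraries and 15 in all), 1 coefficient per group and Benjamini-Hochberg adjustment over 16892 genes. The SE was obtained from the fold change and its F value, as |log2 fold change|/sqrt(F). The fit was tested on simulated data. For single genes, exact permutation tests, two-sided, were run with scipy 1.17.1. Alternatives were DESeq2 1.42.0, RLE size factors, other filters, only the libraries compared, litter or embryo as replicate block, other criteria, thinning of the Y130A set to a total of 20341531 reads, and each library left out in turn. Fits without both livers with squamous epithelium transcripts, and tissue contrasts within 1 set of litters, were added after seeing the data. The titles state the litter, and residuals of 23 pairs of littermates had a median correlation of 0.0807, against -0.0299 in 69 pairs from different litters. CPM per kb uses the exonic length of GENCODE M21. Replicates of a tissue are separate embryos. Promoters are from RefSeq (GRCm38.p6), and transposable elements were not analysed here.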

Additional observations from a re-analysis of the deposited data

Results flagged for a closer look

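The difference of the effects of the 2 alleles on Tdrd1 in liver passed the test of that difference, at a log2 difference of -6.58 (SE 1.53, adjusted p = 0.00540 in edgeR), where no limit was set on the SE. It was no longer called without the WT liver of the S226A litters with 20 reads (-4.44, adjusted p = 0.170 in edgeR) or the Y130A liver with 35 reads (-5.58, adjusted p = 0.0292), which held 1126 and 744 CPM of squamous epithelium transcripts. It was also not called, at adjusted p values of 0.0105 to 0.0144 in edgeR, without any 1 of S226A liver replicates 1, 3 and 4 or without WT liver replicate 2 of the Y130A litters, each with 0 reads. The part of these transcripts in the difference was not tested.

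In 18 of 73 combinations of a gene and a group of 4 libraries, 1 library stood apart from the other 3. Chance flags about 1 in 20 groups of continuous values, but that rate does not hold here, since any group with reads in 1 library of 4 is flagged by its construction. In all 18 the library that stood apart had 1 to 6 reads, and apart from Ddx4 the other 3 had none, so that the number of flags is no sign of an excess. In S226A livers these were Dazl (1 read, replicate 2), Ddx4 (5 reads, replicate 4, below the others), Sycp3, Slc25a31 and Tdrd1 (1 read each, replicate 2). In WT livers of the S226A litters they were Sycp3 (3 reads) and Slc25a31 (5 reads), both in replicate 3. In livers of the Y130A litters they were Dazl in the mutant (3 reads) and in WT (6 reads) and Asz1 in the mutant (3 reads). In lungs of the S226A litters they were Dazl (2 reads), Sycp1 (5 reads) and Sycp3 (1 read) in WT, and Mael (1 read) and Sycp1 (2 reads) in the mutant. The rest were Mael in Y130A lung (4 reads), Sycp1 in S226A brain (2 reads) and Asz1 in WT brain of the Y130A litters (4 reads). S226A liver replicate 2 held the stray read of 4 of the genes.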

How the results depend on the processing

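Over the 6 mutant comparisons, 99 of 100 alternative fits called 0 germline genes. The exception was an adjusted p below 0.05 alone in S226A liver, which called 1, Tdrd1, in the direction of lower levels. With litter as replicate block 0 were called in each. The permutation tests gave 0 below 0.05 with a pseudocount of 0.1, without TMM scaling, with differences within litters as replicate block (smallest possible p 0.125 with 4 litters) and without any 1 library, where a comparison with a library left out cannot go below 0.0571, so that these say nothing of stability. Between WT liver and brain, the count of 2 became 4 at an adjusted p below 0.05 alone, 1 without a filter, 1 with at least 1 CPM in at least 3 libraries, 1 within the S226A litters and 1 to 2 with single libraries left out; Dazl was lost by an SE just above 1 without any 1 of the 4 WT livers of the S226A litters (-5.49 each, SE 1.01 to 1.02) or without WT liver replicate 1 of the Y130A litters (-7.29, SE 1.06). Between WT liver and lung, the count of 2 became 1 with embryo as replicate block, 1 within the S226A litters and 1 within the Y130A litters. Asz1 was lost each time by its SE (-9.73, SE 1.09, then -9.71, SE 1.25, and -9.92, SE 1.10). Between WT lung and brain, the count of 3 became 4 without a filter (Sycp3 added), 2 with at least 1 CPM in at least 3 libraries (Dazl not tested), 0 within the S226A litters and 1 within the Y130A litters. The difference between the alleles in liver, called with no limit on the SE, became 0 with only the libraries compared (Tdrd1 not tested), with the Y130A set thinned and without both livers with squamous epithelium transcripts, and ranged from 0 to 1 with single libraries left out. It was lost without WT liver replicate 2 of the S226A litters (-4.44), S226A liver replicate 1 (-6.28), 3 (-6.26) or 4 (-6.29), Y130A liver replicate 1 (-5.58) or WT liver replicate 2 of the Y130A litters (-6.21). Between WT liver and brain the count was 3 with embryo as replicate block (Sycp1 added) and 3 in DESeq2 (Ddx4 added), and no called value changed sign. The shares of all genes called under these settings are not given here. The counts thus do not compare the germline genes with other genes. Most germline genes had few reads, which limits what a test can show.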
